A study of Mus musculus with 12 samples.

Results

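The precursors of 10 spinal neuropeptides (Npy, Sst, Vip, Tac1, Penk, Pdyn, Cck, Grp, Nts and Crh) were followed in astrocyte material that was laser-captured from lumbar spinal cord. The mice were SOD1 G93A mice, a transgenic model of amyotrophic lateral sclerosis, and littermate controls. Members were all probe sets whose platform annotation gave 1 of these symbols, which were 11 probe sets for 10 genes out of 45037 probe sets that are no controls. The groups were SOD1 G93A mice at 90 days (symptomatic), their non-transgenic (NTg, labelled wildtype) littermates at 90 days, SOD1 G93A mice at 120 days (late-stage) and NTg littermates at 120 days, with 3 mice and 3 arrays per group. All mice were male, on a C57BL/6 background, and the transgene carries a mutant human SOD1 that its own promoter drives in all cell types, so no group has the mutation in astrocytes alone. From each mouse at least 1500 astrocytes were captured, and their RNA was amplified over several linear rounds before hybridisation. The labels describe toluidine blue staining and the methods staining for ALDH1L1. Each array measured 1 mouse, and mice were the replicates.

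Neuropeptides are made as long precursors that prohormone convertases cut in dense-core granules, from which neurons release them to act on G protein-coupled receptors. In the spinal cord the tachykinin and cholecystokinin precursors are known from excitatory dorsal horn neurons and from sensory afferents, whilst the precursors of enkephalin, dynorphin, somatostatin and neuropeptide Y mark subsets of interneurons that gate pain and motor signals. Some of these genes, Penk among them, are also transcribed by astrocytes in rodents. Many neuropeptide genes carry a cyclic AMP response element, the DNA site of the activity-dependent factor CREB, close to their start.

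The labelled cell type was checked first. All 10 astrocyte markers were tested, 9 of them lay above the array median on all 12 arrays and none was at 0 on any array. The same material held neuronal transcripts, since all 10 general neuronal markers lay above the median on all 12 arrays and their lowest signal was 127.6. It also held oligodendrocyte transcripts, since all 7 tested markers did so with a lowest signal of 83.9. Of 7 microglial markers 3 lay above the median on all 12 arrays. In this bulk material fewer cells of a type and less RNA per cell cannot be told apart. Array medians lay between 27.8 and 29.8 in SOD1 G93A mice and 24.9 and 30.4 in NTg mice at 90 days, and between 38.8 and 55.2 in SOD1 G93A mice and 27.9 and 37.1 in NTg mice at 120 days. Late-stage SOD1 G93A arrays correlated less with their group (mean Pearson's r across probe sets 0.835 to 0.880) than NTg arrays of that age (0.945 to 0.952).

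Promoter sequence was at hand for 7 of the 10 genes in the RefSeq table used here (GRCm38.p6). The 250 bases before the start are printed for 3 of those that held a cyclic AMP response element or its half-site. Capitals mark the full element TGACGTCA, or its half-site TGACG read on either strand (CGTCA on the other), which the full element contains. Sst, on the minus strand at chr16:23890845-23891094, held the full element 48 bases before the start. Cck, on the minus strand at chr9:121495695-121495944, held a half-site 47 bases before the start. Tac1, on the plus strand at chr6:7554811-7555060, held half-sites 197 and 43 bases before the start.
Sst: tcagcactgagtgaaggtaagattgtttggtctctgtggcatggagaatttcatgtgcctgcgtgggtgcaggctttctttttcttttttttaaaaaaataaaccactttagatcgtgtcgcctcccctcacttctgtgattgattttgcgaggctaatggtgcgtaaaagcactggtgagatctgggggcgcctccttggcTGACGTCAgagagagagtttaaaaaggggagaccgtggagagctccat
Cck: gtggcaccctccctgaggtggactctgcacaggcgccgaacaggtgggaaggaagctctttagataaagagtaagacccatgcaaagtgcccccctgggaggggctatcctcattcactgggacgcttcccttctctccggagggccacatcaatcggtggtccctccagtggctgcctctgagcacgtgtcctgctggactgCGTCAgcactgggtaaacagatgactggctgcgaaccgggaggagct
Tac1: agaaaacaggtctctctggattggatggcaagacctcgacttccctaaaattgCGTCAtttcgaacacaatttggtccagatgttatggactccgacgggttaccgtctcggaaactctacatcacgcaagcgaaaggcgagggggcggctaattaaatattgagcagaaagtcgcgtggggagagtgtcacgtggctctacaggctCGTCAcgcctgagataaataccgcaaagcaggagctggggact
Of 32851 promoters of this length, 1.55% held the full element and 17.8% the half-site. Among the members with a promoter, 1 held the full element and 5 held a half-site (Sst, Vip, Tac1, Cck and Nts). The half-site lay 79 bases before the start in Vip and 166 in Nts, and Npy and Pdyn held none. A match describes these letters and is no evidence of binding.

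Penk and Tac1 were measured clearly in this material, 5 members were measured at lower signals and 3 were too dim to test. Values are deposited signals in linear units, with the trimmed mean of every array set to 100. A probe set was tested where it lay above the median of its own array on at least 3 arrays. Penk, Tac1 and Sst did so on all 12 arrays, Cck on 11, Nts on 8, Npy on 6 and Crh on 3. Vip and Grp did so on 1 array each, and Pdyn and the second Tac1 probe set (1431883_at) on none. In no comparison did a member pass an adjusted p of 0.05 (limma, Benjamini-Hochberg adjustment over 26132 probe sets).

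At 90 days 0 of the 7 tested members were higher and 0 lower in SOD1 G93A mice at that threshold, where 0.185% of 12458 tested genes were higher and 0.0401% lower. At an unadjusted p under 0.05 there were 2 members, Cck and Crh (6.21% of all genes), and with a fold change of at least 2 besides there was 1, Crh (2.14%). The 3 SOD1 G93A mice lay wholly above the 3 NTg mice for 1 member and wholly below for 1 (6.95% and 5.44% of all genes). The member above was Crh, which entered the test through exactly 3 arrays, 2 of them from these SOD1 G93A mice. The values that set Crh apart thus also admitted it. Its part in these counts, in the 90-day median and in the difference between the ages below, is no independent support. At 120 days 0 members were higher and 0 lower (4.13% and 4.45% of all genes), and 0 had an unadjusted p under 0.05 (27.7%) or that with a 2-fold change (13.3%). The groups did not overlap for 1 member that was higher and 1 that was lower (15.3% and 20.4% of all genes). For the difference between the ages 0 members passed (0% of all genes), and 1, Crh, had an unadjusted p under 0.05 (9.07%) with a fold change of at least 2 (6.64%). The median log2 fold change of the 7 members was 0.34 at 90 days and -0.08 at 120 days, against 0.02 and -0.08 over all genes tested. In simulated arrays with the spread of the real ones, 9 of 100 probe sets changed 2-fold and 66 of 100 changed 4-fold at 120 days were recovered. Fewer probe sets changed there than genes were called in the real arrays at 120 days, which made the adjusted threshold stricter. The changed probe sets were also drawn from all those tested. These rates therefore do not give the chance of detecting a change of a precursor here.

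**Figure D1:**
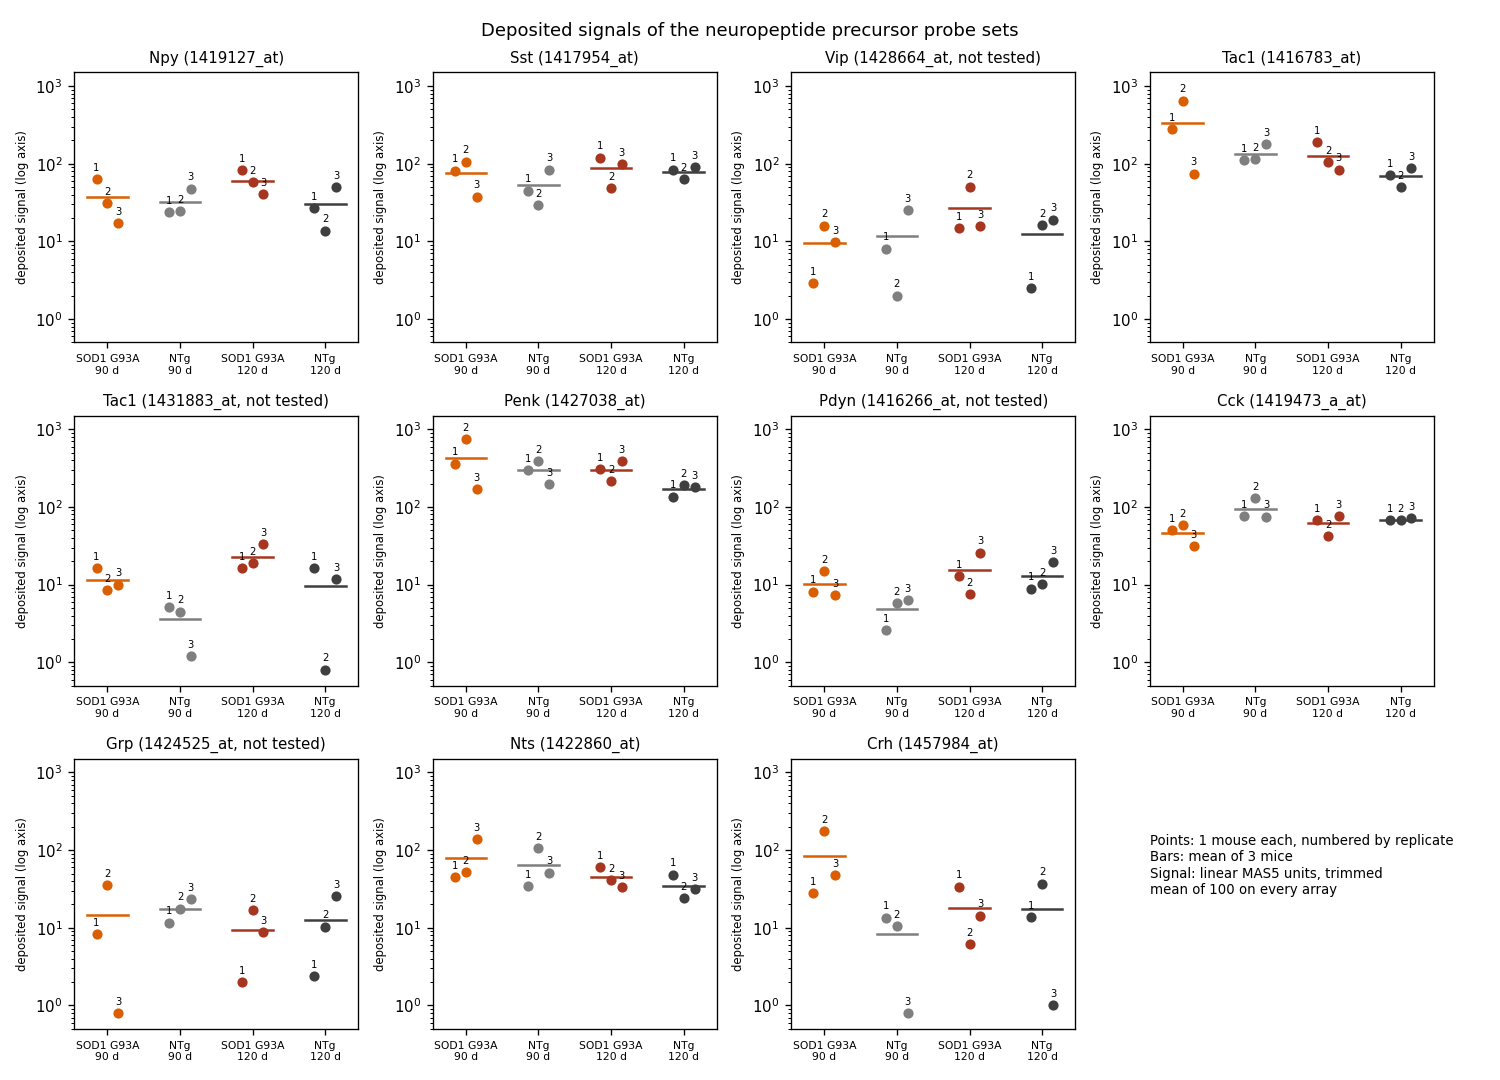
Deposited signal (linear units, log axis) of each precursor probe set in the 3 SOD1 G93A and 3 NTg mice of each age; points are mice numbered by replicate and bars are means of 3. At 120 days the SOD1 G93A points of Penk (214.7 to 389.0) lie above the NTg points (135.8 to 189.5), and at 90 days those of Cck (31.2 to 58.6) lie below (75 to 130.3).

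Penk, the precursor of the enkephalins, which dampen nociceptive and motor circuits through opioid receptors, had the lowest p of the members at 120 days. At that age its signal was 304.8, 214.7 and 389.0 in SOD1 G93A mice, against 135.8, 189.5 and 178.2 in NTg mice. Every SOD1 G93A mouse was above every NTg mouse, on deposited and on normalized values. The log2 fold change was 0.90 (standard error 0.46, 95% interval -0.08 to 1.88), and its adjusted p = 0.231 in limma. With arrays centred on their medians in place of quantile normalization the estimate was 0.41, a scaling that moved the median of all genes by -0.31. At 90 days its signal was 361.1, 743.5 and 170.7 in SOD1 G93A mice, against 297.4, 391.0 and 197.8 in NTg mice. Here the groups overlapped, and the SOD1 G93A mice held both the highest and the lowest value, giving a log2 fold change of 0.34 (standard error 0.46, interval -0.64 to 1.32). The estimate at 90 days was -0.19 without SOD1 G93A replicate 2. The 2 ages did not differ in this contrast beyond their error (difference 0.56, standard error 0.64, adjusted p = 0.808 in limma).

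Tac1, the precursor of substance P and neurokinin A, was represented by the brighter of its probe sets (1416783_at). At 90 days its signal was 277.6, 649.1 and 74.7 in SOD1 G93A mice, against 110.2, 114.5 and 177.1 in NTg mice. SOD1 G93A replicates 1 and 2 were above all NTg mice and replicate 3 below all of them. The log2 fold change was 0.84 (standard error 0.59, interval -0.43 to 2.11). It was 0.13 without SOD1 G93A replicate 2 and 1.66 without replicate 3, so its size rested on single mice. At 120 days the signal was 191.4, 104.1 and 84.3 in SOD1 G93A mice, against 71.8, 50.1 and 87.0 in NTg mice. SOD1 G93A replicate 3 fell within the NTg values, giving an estimate of 0.55 (standard error 0.59, adjusted p = 0.591 in limma), or 0.16 without SOD1 G93A replicate 1. The second probe set lay between 0.8 and 32.9 on all arrays and was not tested. At 90 days it read 16.4, 8.4 and 10.0 in SOD1 G93A mice, against 5.1, 4.5 and 1.2 in NTg mice, signals at which 4 of its 12 values did not exceed the offset of 7 added before the log.

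Cck, the precursor of cholecystokinin, an excitatory peptide that opposes opioid action in the dorsal horn, was the only tested member with a lower signal in all SOD1 G93A mice at 90 days. Its signal was 49.9, 58.6 and 31.2 in SOD1 G93A mice, against 76.3, 130.3 and 75 in NTg mice. The log2 fold change was -0.93 (standard error 0.30, interval -1.58 to -0.29), and its adjusted p = 0.540 in limma. At 120 days the signal was 67.3, 41.7 and 76.0 in SOD1 G93A mice, against 67.5, 67.1 and 71.2 in NTg mice. Deposited values overlapped at that age and normalized values did not, and the estimate was -0.41 (standard error 0.30, adjusted p = 0.409 in limma), or -0.19 without SOD1 G93A replicate 2. With single arrays left out the estimate at 90 days lay between -1.08 and -0.67, and its adjusted p between 0.387 and 1.

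Crh, the precursor of corticotropin-releasing hormone, a stress peptide, was dim in 3 groups and brighter in the SOD1 G93A mice of 90 days. Its signal there was 28.2, 174.4 and 47.3, against 13.5, 10.4 and 0.8 in NTg mice of that age. The groups did not overlap, and the log2 fold change was 2.22 (standard error 0.72, interval 0.66 to 3.78), and its adjusted p = 0.560 in limma. Crh entered the test through exactly 3 arrays, 2 of them from this group, so the same values that gave the difference also let it pass the filter. Without SOD1 G93A replicate 2 it no longer passed, and its log2 fold change with the probe sets kept as before (a setting chosen after seeing the data) was 1.53. At 120 days the signal was 34.0, 6.1 and 14.3 in SOD1 G93A mice, against 13.8, 37.0 and 1.0 in NTg mice. These values overlapped, and the log2 fold change was -0.10 with a standard error of 0.72. The difference between the ages was -2.32 (standard error 1.02, adjusted p = 0.528 in limma).

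**Figure D2:**
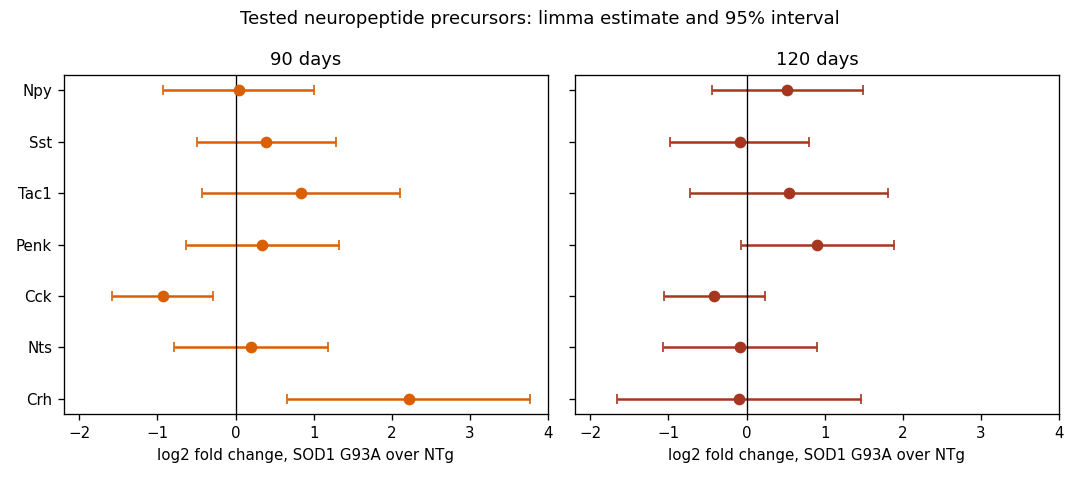
Log2 ratio of SOD1 G93A to NTg mice (horizontal axis) for the 7 tested precursors at 90 and 120 days, with 95% intervals from the limma fit of 3 mice per group. Only the intervals of Cck (-1.58 to -0.29) and Crh (0.66 to 3.78) at 90 days leave out 0, and neither passed after adjustment. Crh passed the filter partly through its high values in SOD1 G93A mice of 90 days.

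Sst, Npy and Nts showed no separation of the groups at either age. Sst, the precursor of somatostatin, an inhibitory peptide of dorsal horn interneurons, read 81.6, 106.1 and 37.5 in SOD1 G93A mice, against 45.0, 29.0 and 84.0 in NTg mice at 90 days (log2 fold change 0.39, standard error 0.41). At 120 days it read 119.4, 48.6 and 99.0 in SOD1 G93A mice, against 83.7, 62.9 and 89.7 in NTg mice (-0.09, interval -0.98 to 0.80). The NTg mice of 120 days lay within the range of the SOD1 G93A mice. Npy, the precursor of neuropeptide Y, which restrains dorsal horn excitation, read 63.8, 31.0 and 17.1 in SOD1 G93A mice, against 23.7, 24.4 and 47.8 in NTg mice at 90 days (0.04, interval -0.93 to 1.01). At 120 days it read 82.9, 57.6 and 40.5 in SOD1 G93A mice, against 26.7, 13.7 and 50 in NTg mice (0.52, standard error 0.45, adjusted p = 0.489 in limma). The groups overlapped, and the estimate was 0.18 without SOD1 G93A replicate 1. Nts, the precursor of neurotensin, read 45.0, 52.1 and 138.0 in SOD1 G93A mice, against 34.3, 106.2 and 51.1 in NTg mice at 90 days (0.19, standard error 0.46). At 120 days it read 60.9, 41.4 and 33.1 in SOD1 G93A mice, against 48.2, 23.9 and 31.6 in NTg mice (-0.08, interval -1.07 to 0.90). These intervals span a 2-fold difference in at least 1 direction or come close to it.

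The 3 dim precursors gave signals too low to rank. Vip, the precursor of vasoactive intestinal peptide, lay between 2.0 and 50.9 on the 12 arrays, and only SOD1 G93A replicate 2 at 120 days was above the array median. Grp, the precursor of gastrin-releasing peptide, an itch transmitter, lay between 0.8 and 35.3. Its 1 array above the median was SOD1 G93A replicate 2 at 90 days. Pdyn, the precursor of the dynorphins, read 8.1, 15.0 and 7.3 in SOD1 G93A mice, against 2.6, 5.8 and 6.3 in NTg mice at 90 days. The groups did not overlap, but no Pdyn value was above the median of its array and it was not tested.

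Within groups the precursors varied widely between mice. On normalized values SOD1 G93A replicate 2 at 90 days was the highest of its group for 5 of 7 members (Cck, Crh, Penk, Sst and Tac1), and replicate 3 the lowest for 5 (Cck, Npy, Penk, Sst and Tac1). At 120 days SOD1 G93A replicate 1 was the highest for 6 of 7, with Penk as the exception. In NTg mice no replicate was the highest for more than 3, but NTg replicate 2 at 120 days was the lowest for 4 (Npy, Nts, Sst and Tac1). The standard deviation of Tac1 was 1.54 in SOD1 G93A mice, against 0.39 in NTg mice on the log2 scale at 90 days, and that of Penk was 1.08 in SOD1 G93A mice, against 0.44 in NTg mice. At 120 days the standard deviations of Penk were 0.53 in SOD1 G93A mice and 0.23 in NTg mice. The SOD1 G93A spread was the larger for 6 of 7 members at each age, by little for Sst (0.68 in SOD1 G93A mice, against 0.62 in NTg mice) and Nts (0.81 in SOD1 G93A mice, against 0.75 in NTg mice) at 90 days. The exceptions were Cck at 90 days (0.37 in SOD1 G93A mice, against 0.44 in NTg mice) and Crh at 120 days (0.91 in SOD1 G93A mice, against 1.36 in NTg mice). The difference in spread was not tested, and its share over all genes is not given here. Over all tested probe sets, late-stage SOD1 G93A arrays also correlated less with their group (mean Pearson's r 0.835 to 0.880) than NTg arrays (0.945 to 0.952). At 90 days these ranges were 0.914 to 0.930 and 0.915 to 0.942. A wider spread at 120 days is thus not particular to the precursors.

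**Figure D3:**
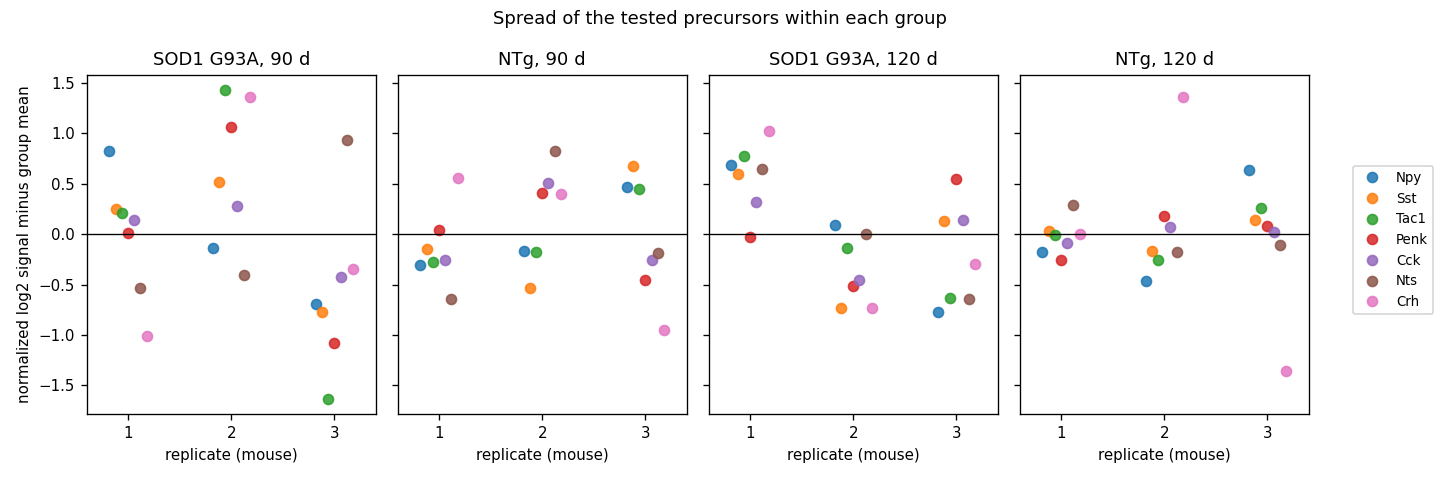
Normalized log2 signal of each tested precursor minus its group mean (vertical axis) for the 3 mice of each group (horizontal axis); 1 point per gene and mouse. SOD1 G93A replicate 2 at 90 days is highest for 5 of 7 precursors, and SOD1 G93A replicate 1 at 120 days for 6 of 7.

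The genes with the most similar pattern were named for the brightest members, Penk and Tac1, by Pearson's r over the 12 arrays after the mean of each age was removed, among 12451 genes. For Penk they were Amz2 (r = 0.929), Sbspon (0.914) and Snx1 (0.888). For Tac1 they were Ckap4 (0.908), Scn3b (0.876) and Rpl12 (0.864). These are the highest of many values over few arrays and are given as a description.

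Of 16 tested genes of prohormone processing and dense-core granules, 3 were lower and none higher at 120 days (4.45% and 4.13% of all genes), with a median log2 fold change of -0.46, and at 90 days none passed (median -0.31). The 3 were genes of vesicle priming, synaptic vesicles and the granule matrix. Processing enzymes of the list did not pass, and 2 of them, named after their values were seen, had all SOD1 G93A mice above all NTg mice at 120 days. These were Furin, a proprotein convertase (0.67, standard error 0.22, adjusted p = 0.0838 in limma), and Pam, which amidates peptides (0.74, standard error 0.37, adjusted p = 0.225). Cpe, another processing enzyme named afterwards, went the other way, with all SOD1 G93A mice below all NTg mice (-0.69, standard error 0.47, adjusted p = 0.372). Pcsk1 overlapped (-0.44, adjusted p = 0.41). Of all genes 15.3% lay wholly above and 20.4% wholly below at that age. Whether this list and the precursors differ was not tested. Cadps, which primes dense-core vesicles for release, read 510.8, 557.0 and 378.7 in SOD1 G93A mice, against 1424.2, 2236.6 and 1490.3 in NTg mice at 120 days (log2 fold change -1.70, standard error 0.31, adjusted p = 0.00717 in limma). Dmxl2, a synaptic vesicle protein of the rabconnectin family, read 845.6, 697.9 and 496.4 in SOD1 G93A mice, against 1934.5, 2319.8 and 1977.8 in NTg mice (-1.57, standard error 0.27, adjusted p = 0.00541). Chgb, secretogranin 1, a granule matrix protein, read 1157.0, 826.9 and 710.1 in SOD1 G93A mice, against 1522.4, 1967.6 and 1648.1 in NTg mice (-0.87, standard error 0.22, adjusted p = 0.0347). At 120 days the groups were apart for Cadps, Dmxl2 and Chgb. At 90 days all SOD1 G93A mice were also below all NTg mice for Dmxl2 (-0.88, adjusted p = 0.488 in limma) and Chgb (-0.39, standard error 0.22), as were 5.44% of all genes. Cadps overlapped at 90 days (-0.40, standard error 0.31). None of these 3 genes passed for the difference between the ages (adjusted p = 0.445 for Cadps, 0.596 for Dmxl2 and 0.641 for Chgb). Cadps and Dmxl2 held their calls in all 26 other settings tried (3 of them chosen after seeing the data), and Chgb lost its call in 10 of 26, among them those that left out SOD1 G93A replicate 2, SOD1 G93A replicate 3 or any 1 of the NTg mice at 120 days (highest adjusted p = 0.140).

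The receptor genes of these peptides gave no call at either age. Of 26 receptor genes 10 were tested, with medians of 0.11 at 90 days and -0.14 at 120 days. Npy5r, a receptor of neuropeptide Y, read 47.1, 11.2 and 42.0 in SOD1 G93A mice, against 70.2, 113.1 and 71.6 in NTg mice at 120 days. All SOD1 G93A mice were below all NTg mice (log2 fold change -1.58, standard error 0.50, adjusted p = 0.0683 in limma), and at 90 days the log2 fold change was -1.08 (adjusted p = 0.886). Sstr2, a somatostatin receptor, read 63.2, 88.4 and 177.0 in SOD1 G93A mice, against 44.1, 39.1 and 43.4 in NTg mice at 120 days (0.96, standard error 0.34, adjusted p = 0.0918). Here all SOD1 G93A mice were above all NTg mice, and at 90 days the estimate for Sstr2 was -0.24 (adjusted p = 1). Ntsr2, the neurotensin receptor known from astrocytes, read 1617.5, 1302.4 and 1347.1 in SOD1 G93A mice, against 1139.3, 980.0 and 1062.9 in NTg mice at 90 days (0.48, standard error 0.22, adjusted p = 0.886). At 120 days it read 543.9, 602.7 and 420.0 in SOD1 G93A mice, against 554.6, 602.8 and 464.3 in NTg mice (0.15, adjusted p = 0.708). The deposited values were not higher in SOD1 G93A mice at that age, so the positive sign for Ntsr2 depended on the normalization.

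Peptidases and other neuropeptide precursors also gave no call. Of 8 tested peptidase genes the median log2 fold change was -0.02 at 90 days and 0.02 at 120 days. Ace, angiotensin-converting enzyme, which also cleaves several neuropeptides, had a log2 fold change of -0.56 at 90 days (adjusted p = 1 in limma) and 1.15 at 120 days (adjusted p = 0.180). Thop1, thimet oligopeptidase, had one of 0.30 (adjusted p = 1) and 0.66 (adjusted p = 0.231) at these ages, and Prep, prolyl endopeptidase, of -0.58 at 90 days (adjusted p = 0.985) and -0.62 at 120 days (adjusted p = 0.242). Ace was dim at 90 days, with 41.6, 21.8 and 0.6 in SOD1 G93A mice, against 24.6, 22.6 and 26.7 in NTg mice. The value of 0.6 lay under the offset of 7. For Ace the difference between the ages did not pass (adjusted p = 0.516 in limma). Of 7 other precursor genes tested the medians were 0.22 and -0.15. Calcb, which encodes a calcitonin gene-related peptide of motor and sensory neurons, read 158.6, 148.2 and 333.6 in SOD1 G93A mice, against 284.5, 856.8 and 618.2 in NTg mice at 90 days (-1.39, standard error 0.53, adjusted p = 0.75), and its log2 fold change was -1.18 at 120 days (adjusted p = 0.181). The groups overlapped at both ages. Pomc, the precursor of beta-endorphin, had estimates of -0.24 at 90 days (adjusted p = 1) and 1.17 at 120 days (adjusted p = 0.157), and Adcyap1, the precursor of the peptide PACAP, of 0.39 (adjusted p = 1) and 0.69 (adjusted p = 0.218).

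**Figure D4:**
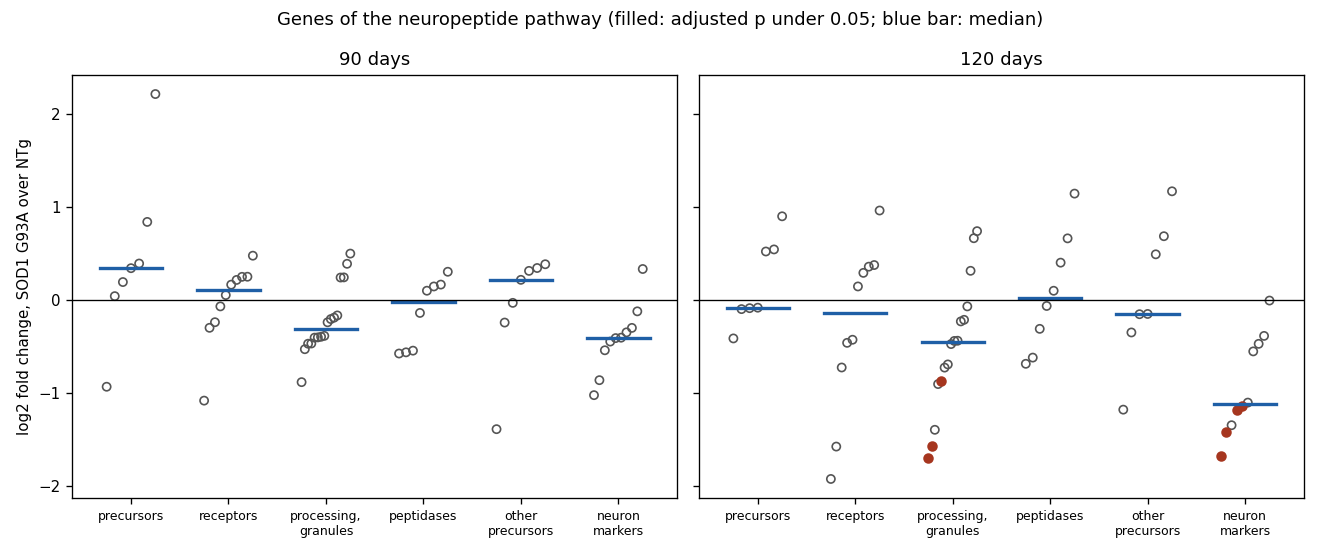
Log2 ratio of SOD1 G93A to NTg mice (vertical axis) for every tested gene of 5 neuropeptide lists and of the general neuronal markers at 90 and 120 days; filled points have an adjusted p under 0.05 and blue bars are medians. At 120 days 3 genes of the processing and granule list and 4 neuronal markers are filled and lower, and no precursor is filled.

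Markers of other cell types moved with genotype at 120 days, the age at which Cadps, Dmxl2 and Chgb passed the test. The summed signal of the 10 general neuronal markers lay between 8760.1 and 14122.2 in SOD1 G93A mice, against 19623.5 and 24909.0 in NTg mice, and 4 of 10 were lower with none higher (median log2 fold change -1.12). Among them were Snap25 (-1.42, adjusted p = 0.0277 in limma) and Nefl (-1.18, adjusted p = 0.0276), whose calls were lost in 7 and 8 of 26 settings, for both genes when late-stage SOD1 G93A replicate 3, NTg replicate 2 or NTg replicate 3 was left out (highest adjusted p 0.114 and 0.110). At 90 days the same sum was 18295.2 to 21211.6 in SOD1 G93A mice, against 24228.9 to 27965.3 in NTg mice, with no marker called (median -0.41). The summed signal of 7 microglial markers lay between 4949.9 and 5448.6 in SOD1 G93A mice, against 1118.3 and 1267.6 in NTg mice at 120 days, where 5 of 7 were higher, C1qa among them (2.64, adjusted p = 0.000123). At 90 days it was 4928.1 to 7502.6 in SOD1 G93A mice, against 2053.3 to 3593.3 in NTg mice, and C1qa alone was called (2.22, adjusted p = 0.00228). Of 10 astrocyte markers 3 were higher at 120 days, Gfap most (4.79, adjusted p = 0.000123). Their estimates were above 0 for 7 of the 10 and below for 3 (median 0.31). The summed signal of the 10 was 15962.2 to 25737.0 in SOD1 G93A mice, against 13027.0 to 16594.6 in NTg mice. None of 7 oligodendrocyte markers was called at 120 days, with 6 above 0 and none below (median 0.35), and their summed signal was 35825.8 to 48973.4 in SOD1 G93A mice, against 22645.3 to 28426.1 in NTg mice. No tested gene of these marker lists was at 0 on any array. The part of these shifts in the values of the precursors and of Cadps, Dmxl2 and Chgb was not tested.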

How the data were processed

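Astrocyte material of 12 mice was measured on Affymetrix mouse genome arrays. The authors deposited signal intensities on a linear scale, which per the labels came from MAS5 (version not given in the sources used here) and had a trimmed mean of 100 on every array. The study's own comparison used another summary, PLIER. Detection calls and background were not analysed here, so dim signals carry little precision. An offset of 7, equal to percentile 20 of the whole table, was added before log2, and arrays of the same age were quantile-normalized together. Probe sets whose signal exceeded the array median in 3 or more arrays were fitted with 4 group means in limma 3.58.1 (R 4.3.3), with p-values adjusted after Benjamini and Hochberg at a threshold of 0.05. Genes are counted by their brightest probe set of 1 symbol. All member probe sets are named, with called genes of each pathway list, or else its 2 lowest p at each age. The steps were tested on simulated data. Members and lists were chosen with earlier results of these data known. Alternatives covered normalization, offset, filter, samples fitted, replicate block, weights, prior, call rule and each array left out. Figures were drawn with matplotlib 3.10.9. qPCR and staining data were not analysed here.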

Additional observations from a re-analysis of the deposited data

How the results depend on the processing

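No precursor passed an adjusted p of 0.05 at 90 days, at 120 days or in the difference between the ages under any normalization, offset, filter, prior, array weights or left-out array, and the count was 0 each time. With a fold change of 2 and an unadjusted p of 0.05 in its place, 1 precursor (Crh) was called at 90 days, 0 at 120 days and 1 (Crh) in the difference. Crh passed the filter partly through the same high values of SOD1 G93A mice at 90 days. Of 515 log2 fold changes of members under other settings, 487 kept direction and side of the threshold, and 28, of 8 results, changed sign. With values as deposited these were Sst at 120 days (0.094), Nts at 120 days (0.33), Crh at 120 days (0.21) and the difference of Nts (0.10). With an offset of 1 it was Crh at 120 days (0.10), and with array weights Nts (0.17) and Crh (0.39) at 120 days. With single arrays left out, estimates ranged from -0.38 to 0.38 for Npy, from -0.19 to 0.89 for Penk and from -0.27 to 0.60 for Nts at 90 days. They ranged from -0.39 to 0.28 for Sst, from -0.41 to 0.25 for Nts and from -0.78 to 0.26 for Crh at 120 days (0.60 without NTg replicate 2 when the probe sets of the full test were kept, a setting chosen after seeing the data), and from -1.11 to 0.42 for Tac1 and from -0.68 to 0.19 for Nts in the difference. The cause was not tested. Over all settings Penk at 120 days lay between 0.41 and 1.17 (adjusted p 0.143 to 0.559), lowest with median centring. Crh was not tested without SOD1 G93A replicate 2 or 3 at 90 days or NTg replicate 2 at 120 days, and only Tac1 and Penk passed the filter at the 75th percentile.

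With the replicate number as a replicate block, 0 precursors were called at either age, and Penk at 120 days had an adjusted p = 0.15 with the same log2 fold change of 0.90. Same-numbered mice did not deviate together (r of -0.266, 0.275 and -0.280 at 90 days and -0.065, 0.035 and -0.009 at 120 days), so the numbers were not taken as pairs. The block moved no call of a precursor and ended those of Chgb and Nefl. There were 3 mice per group, and signals lay near the offset for Crh, Vip, Grp and Pdyn. For Crh even a log2 fold change of 2.22 at 90 days did not pass (adjusted p = 0.560 in limma). Vip, Grp and Pdyn were tested only with no filter. The size of difference that could be detected for these genes was not determined.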

Other observations

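Among markers of the neuron classes known to hold these peptides, 1 inhibitory and 1 excitatory interneuron gene passed the test at 120 days, and both were lower in SOD1 G93A mice. Slc6a5, the glycine transporter of inhibitory neurons, fell by 2.25 on the log2 scale (adjusted p = 0.0202 in limma), a call that was lost in 4 of 26 settings, those that left out late-stage SOD1 G93A replicate 3, NTg replicate 2 or NTg replicate 3 (highest adjusted p = 0.0784). Of 5 tested markers of inhibitory interneurons it was the only one called (median -0.73), with a summed signal of 1647.3 to 3192.6 in SOD1 G93A mice, against 4486.7 to 5374.2 in NTg mice. Of 6 listed markers of excitatory interneurons 3 were tested, and 1 was called and lower (Maf, -1.48, adjusted p = 0.00936 in limma). The median of the 3 was -1.48, which is the value of Maf itself. Slc17a6 had an estimate of -1.96 (adjusted p = 0.0805) and Ebf1 of -0.15 (adjusted p = 0.812). The call of Maf was not followed through the other settings. None of 6 motor neuron markers was called (median -0.95). None of these 3 lists had a call at 90 days. Whether precursors and these markers differ in their response was not tested.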
